A study of Mus musculus with 8 samples.

Results

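The 9 genes described here code for ion channels of the sperm plasma membrane and for proteins that act beside them in sperm motility and fertilization: Catsper1, Catsper2, Catsper3, Catsper4, Catsperb, Kcnu1, Hvcn1, Pkdrej and Plcz1. They were selected by gene name, with earlier results of these data known, and every transcript listed under one of the names was kept. Of the 9 genes, 8 had at least 1 entry, with 14 distinct transcripts out of 19077 distinct transcripts and 12200 gene names in the 3 tables of the series. Catsper1 had no entry in the tables analysed here. Its coding transcript in the GENCODE M1 annotation, Catsper1-201 (ENSMUST00000043380), is 2061 nt long and is annotated as coding throughout, with a 3' UTR of 0 nt.

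RNA was sequenced from enriched round spermatids, the haploid cells that follow meiosis, of 4 Tdrd6-/- and 4 Tdrd6+/- mice at postnatal day 26 on a C57BL/6 background. TDRD6 is a tudor domain protein of the chromatoid body, a cytoplasmic RNA granule of these cells, and the comparison asks which transcripts differ in level when it is missing. Both genotypes carry a targeting cassette that joins human CD4 to the start of the Tdrd6 reading frame, on both alleles in Tdrd6-/- and on 1 allele in Tdrd6+/- mice. Cells from the testis were collected through human CD4 with magnetic beads. The controls are therefore heterozygous animals with 1 intact allele and not wild type, and the cells collected are those in which the Tdrd6 locus was active rather than round spermatids sorted as such. Each transcript has 1 FPKM per genotype (fragments per transcript, scaled to its length and to the fragments of the library), in which the authors combined the 4 libraries. No value of a single animal was analysed here, so no spread and no test can be given for any difference below, and the depth behind a value is unknown. Ratios are the log2 of Tdrd6-/- over Tdrd6+/- and describe these pooled values only. Transcripts are counted as lower or higher at a change of at least 1.5-fold.

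CatSper is the calcium channel of the sperm tail. It is built from 4 pore-forming subunits, CATSPER1 to CATSPER4, and several accessory subunits, among them CATSPERB, and its opening drives the vigorous tail beat called hyperactivation that sperm need to fertilize. KCNU1, also named SLO3, is a potassium channel of mouse sperm that opens at alkaline pH and sets the membrane potential, and HVCN1 is a voltage-gated proton channel. PKDREJ is a sperm membrane protein related to the polycystins, and PLCZ1 is the phospholipase that sperm deliver to the egg to start its calcium oscillations. Mouse spermatids transcribe such genes while the sperm that will use the proteins are still forming.

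Tdrd6 itself was far lower in the Tdrd6-/- cells. Its main transcript, ENSMUST00000168073, had 1.29 FPKM in Tdrd6-/- and 40.6 FPKM in Tdrd6+/- round spermatids, a log2 ratio of -4.98. A further transcript, ENSMUST00000045717, had 0.174 FPKM in Tdrd6-/- and 16.02 FPKM in Tdrd6+/- cells, and ENSMUST00000166046 was listed at 0 in Tdrd6-/- and at 0.540 FPKM in Tdrd6+/- cells.

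The cells carried the markers of round spermatids. All 11 genes of that list had an entry, with a summed FPKM of 2268 in Tdrd6-/- and 2988 in Tdrd6+/- cells. With the transcript of the highest mean FPKM taken for each gene, 4 of the 11 were lower and 0 higher. Their median log2 ratio was -0.42, and 9 were below 0. Of such transcripts of all genes 8.65% were lower (1054 of 12191). Of 8 late spermatid markers 5 were lower in Tdrd6-/- cells, among them the protamine genes Prm1 and Prm2 and the transition protein genes Tnp1 and Tnp2, which made up most of the summed FPKM. The sum was 5788 FPKM in Tdrd6-/- and 20905 FPKM in Tdrd6+/- cells, with a median log2 ratio of -1.34, and the other 3, Akap4, Smcp and Gapdhs, had log2 ratios of -0.56, -0.25 and -0.19. The 11 spermatocyte markers summed to 5384 FPKM in Tdrd6-/- and 6717 FPKM in Tdrd6+/- cells, most of it from Ldhc, with a median log2 ratio of 0.25. Of these 11 genes 1 was lower, Hormad2 with a log2 ratio of -1.10, and 0 were higher. Markers of spermatogonia and of somatic cells had far lower sums. In Tdrd6-/- cells these were 7.11 FPKM over 6 of 7 spermatogonial genes, 33.0 FPKM over 4 of 7 Sertoli cell genes, 25.7 FPKM over 5 Leydig cell genes, 3.13 FPKM over 2 of 4 peritubular genes and 0.999 FPKM over 1 of 9 blood cell genes. In Tdrd6+/- cells the sums over the same genes were 8.10, 36.6, 26.8, 2.20 and 1.40 FPKM. The Sertoli cell genes Amh, Rhox5 and Sox9 had no entry. The part of the late spermatid and spermatocyte markers in the differences of the ion channel genes was not tested, and in these bulk preparations fewer cells of a stage and less RNA per cell cannot be told apart. The study examined the make-up of the preparations of both genotypes by flow cytometry, and those measurements were not analysed here.

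The main transcripts of the 8 genes differed little between genotypes. For each gene the transcript with the highest mean FPKM is called its leading transcript. None of the 8 leading transcripts was at least 1.5-fold lower or higher in Tdrd6-/- cells, where 8.65% of all leading transcripts were lower (1054 of 12191) and 7.29% were higher (889 of 12191). Their log2 ratios lay between -0.39 and 0.25 with a median of -0.01, against a median of 0.00 over all leading transcripts, and 4 were below and 4 above 0. With 8 transcripts and such background shares, a count of 0 does not set these genes apart.

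**Figure D1:**
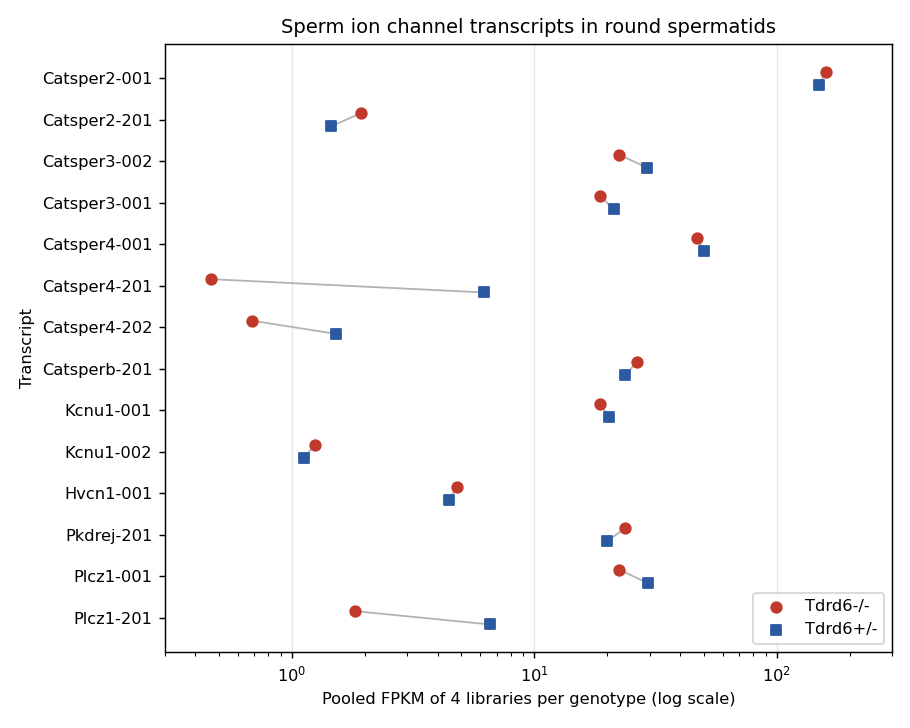
Pooled FPKM (log scale) of the 14 transcripts of sperm ion channel genes, with a red circle for Tdrd6-/- and a blue square below it for Tdrd6+/- round spermatids, each 1 value made from 4 libraries and so without an error bar. The circles and squares of most transcripts lie close together, while Catsper4-201 had 0.464 FPKM in Tdrd6-/- against 6.18 FPKM in Tdrd6+/- cells and Plcz1-201 had 1.83 against 6.58 FPKM.

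Among the pore-forming subunits with an entry, Catsper2 was by far the most abundant. Its leading transcript Catsper2-001 (ENSMUST00000038073, 13 exons, 588 amino acids, mm9 chr2:121220091-121239528, minus strand) had 158.9 FPKM in Tdrd6-/- and 150.0 FPKM in Tdrd6+/- cells, a log2 ratio of 0.08. That level stood above 95.4% of all leading transcripts in Tdrd6-/- and above 94.1% in Tdrd6+/- cells. The short-coding isoform Catsper2-201 (ENSMUST00000099478), with a coding part of 429 nt in a transcript of 2130 nt, had 1.93 FPKM in Tdrd6-/- and 1.45 FPKM in Tdrd6+/- cells (log2 ratio 0.41). It made up 1.201% of the FPKM of the gene in Tdrd6-/- and 0.957% in Tdrd6+/- cells. Taken as whole genes, Catsper2 overlaps Pdia3 on the opposite strand over 807 nt and the pseudogene Gm14001 on its own strand over 247 nt. Catsper2 and Pdia3 are listed in 1 locus. Catsper2-201 runs to 121240317, beyond the end of Catsper2-001 at 121239528. How much of the overlap lies within Catsper2-001 was not computed. The library kit keeps strand, but whether the counting used it is not stated, so reads of overlapping genes cannot be told apart there.

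Catsper4 was second in level, and here the isoforms differed. Catsper4-001 (ENSMUST00000055892, 11 exons, 442 amino acids, mm9 chr4:133767885-133783298, minus strand) had 46.9 FPKM in Tdrd6-/- and 50.1 FPKM in Tdrd6+/- cells, a log2 ratio of -0.09. Catsper4-201 (ENSMUST00000169381) had 0.464 FPKM in Tdrd6-/- and 6.18 FPKM in Tdrd6+/- cells, 13.3-fold lower (log2 ratio -3.74), the widest difference among the 14 transcripts. Catsper4-202 (ENSMUST00000171287) had 0.684 FPKM in Tdrd6-/- and 1.53 FPKM in Tdrd6+/- cells, 2.23-fold lower (log2 ratio -1.16). With 1 added to each FPKM the log2 ratios of these low transcripts were -2.29 for Catsper4-201 and -0.59 for Catsper4-202, the second at the 1.5-fold limit. Catsper4-201 thus held 0.965% of the FPKM of the gene in Tdrd6-/- cells and 10.7% in Tdrd6+/- cells, and Catsper4-001 held 97.6% in Tdrd6-/- and 86.7% in Tdrd6+/- cells. Summed over the 3 transcripts the gene had 48.1 FPKM in Tdrd6-/- and 57.8 FPKM in Tdrd6+/- cells, a log2 ratio of -0.27.

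The 3 Catsper4 isoforms part ways after the same exon, and the junctions that tell them apart are shown because the lower values rest on them. Each line gives 30 bases of the transcript, 5' to 3', from GENCODE M1 on mm9, with the last 15 bases of the shared exon (133777435 to 133777536) in lower case and the first 15 bases of the next exon in capitals.
Catsper4-001: tggattttctggaagGATGGCTGGAATATC
Catsper4-201: tggattttctggaagGTATTCTCTGTGTTT
Catsper4-202: tggattttctggaagGGTGCTCCGGCTGGT
Catsper4-001 goes on to an exon of 98 nt (133774324 to 133774421) and then 1 of 121 nt (133774056 to 133774176). Catsper4-201 leaves out both, which removes 219 nt or 73 codons and keeps the reading frame, for a product of 369 amino acids. Catsper4-202 leaves out only the exon of 98 nt, which shifts the frame, and its coding part ends after 158 amino acids with 5 exon junctions behind the stop codon, the last of them 703 nt away. Neither shorter isoform has a base that is missing from all the other listed isoforms, and each has a single junction of its own. Their FPKM is therefore an estimate of how reads of shared exons divide between isoforms, and the reads across that junction are the only ones particular to each. The number of such reads is not known from the tables.

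**Figure D2:**
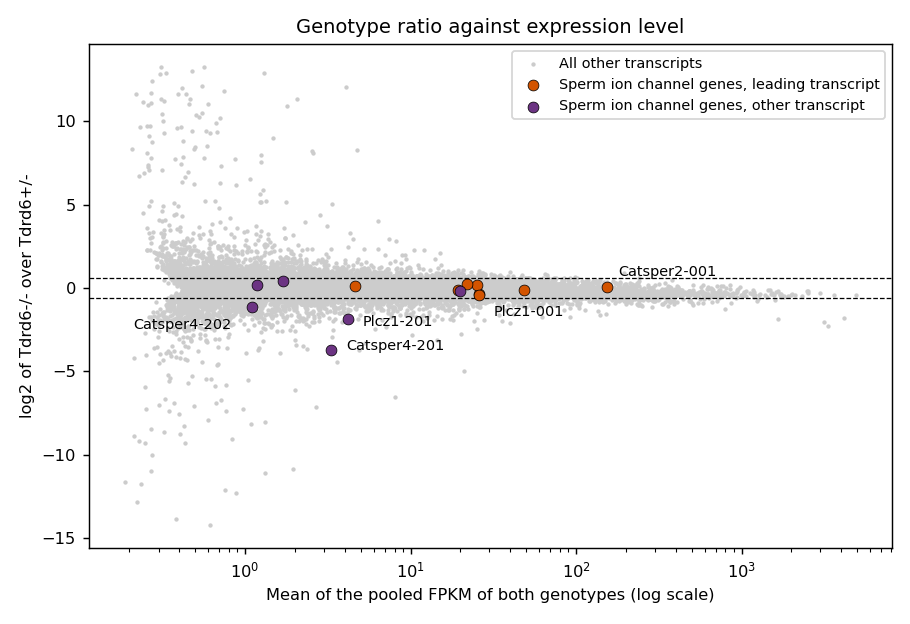
Log2 ratio of Tdrd6-/- over Tdrd6+/- against the mean pooled FPKM of both genotypes (log scale) for every transcript with both values above 0, in grey, with leading transcripts of the 8 genes in orange and their other transcripts in purple; dashed lines mark 1.5-fold. The 3 points below the lower line are Catsper4-201 at -3.74, Plcz1-201 at -1.84 and Catsper4-202 at -1.16, all of low level, where the grey points spread most.

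Catsper3 had a pair of transcripts of like level, both with ratios below 0 that fell short of 1.5-fold. Catsper3-002 (ENSMUST00000109898, 382 amino acids, mm9 chr13:55885940-55910359, plus strand) had 22.4 FPKM in Tdrd6-/- and 29.3 FPKM in Tdrd6+/- cells, a log2 ratio of -0.39. Catsper3-001 (ENSMUST00000021961, 395 amino acids) had 18.8 FPKM in Tdrd6-/- and 21.3 FPKM in Tdrd6+/- cells, a log2 ratio of -0.18. Catsper3-002 made up 54.4% of the gene in Tdrd6-/- and 57.9% in Tdrd6+/- cells, so the balance of both was nearly the same. Their sum was 41.1 FPKM in Tdrd6-/- against 50.6 FPKM in Tdrd6+/- cells, a log2 ratio of -0.30. The isoforms use different starts of the same exon, and their junctions are printed as above to show what separates them.
Catsper3-001: ttcagaacctttgagGTCTCAGAGCTTTTC
Catsper3-002: ttcagaacctttgagTTCCTCATGAAGGTC
The lower-case bases come from the exon at 55887727 to 55887880, and the capitals from exons that begin at 55900105 in Catsper3-001 and 55900144 in Catsper3-002.

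The 3 listed pore subunit genes lay far apart in the level of their leading transcripts, in FPKM and so per length. The level of Catsper2-001 was 3.39 times that of Catsper4-001 in Tdrd6-/- and 2.99 times in Tdrd6+/- cells. It was 7.10 times that of Catsper3-002 in Tdrd6-/- and 5.12 times in Tdrd6+/- cells. Summing both Catsper3 transcripts narrows this gap, since the gene then had 41.1 FPKM in Tdrd6-/- and 50.6 FPKM in Tdrd6+/- cells, close to the level of Catsper4.

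Catsperb, the accessory subunit, had a single listed transcript. Catsperb-201 (ENSMUST00000055156, 27 exons, 1109 amino acids, mm9 chr12:102642883-102864219, plus strand) had 26.6 FPKM in Tdrd6-/- and 23.6 FPKM in Tdrd6+/- cells, a log2 ratio of 0.17. Of 10 other CatSper subunit genes, 7 had an entry, 1 was lower and 0 were higher in Tdrd6-/- cells, with a median log2 ratio of 0.05. The lower gene was Efcab9, whose product is a calcium-binding partner of CATSPERZ, with 164.5 FPKM in Tdrd6-/- and 264.6 FPKM in Tdrd6+/- cells (log2 ratio -0.69). Catsperz, listed as 1700019N12Rik, was the most abundant of the CatSper genes with an entry, with 1116 FPKM in Tdrd6-/- and 1460 FPKM in Tdrd6+/- cells (log2 ratio -0.39). The accessory subunit gene Catsperg2 had 55.0 FPKM in Tdrd6-/- and 51.1 FPKM in Tdrd6+/- cells (log2 ratio 0.11).

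The potassium and proton channels differed little. Kcnu1-001 (ENSMUST00000098858, 27 exons, 1121 amino acids, mm9 chr8:26960095-27048404, plus strand) had 18.6 FPKM in Tdrd6-/- and 20.3 FPKM in Tdrd6+/- cells, a log2 ratio of -0.12. Kcnu1-002 (ENSMUST00000120653), which begins within the gene and codes for 381 amino acids, had 1.24 FPKM in Tdrd6-/- and 1.12 FPKM in Tdrd6+/- cells (log2 ratio 0.15). The leucine-rich repeat gene Lrrc52, whose product is an auxiliary subunit of SLO3 in mouse sperm, had 32.0 FPKM in Tdrd6-/- and 32.4 FPKM in Tdrd6+/- cells, a log2 ratio of -0.02. Of 11 genes of the Slo family and its partners 3 had an entry and none passed 1.5-fold, with a median log2 ratio of -0.23.

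Hvcn1 had the lowest level of the 8 leading transcripts and the only one listed with a long 3' UTR. Hvcn1-001 (ENSMUST00000072602, 269 amino acids, mm9 chr5:122659738-122692306, plus strand) has a 3' UTR of 1625 nt in GENCODE M1. It had 4.81 FPKM in Tdrd6-/- and 4.46 FPKM in Tdrd6+/- cells, a log2 ratio of 0.11, against a median of 0.20 over the table of transcripts with long 3' UTRs. It stood above 44.5% of leading transcripts in Tdrd6-/- and 44.2% in Tdrd6+/- cells. Taken as a whole, the gene overlaps Tctn1 on the opposite strand over 1011 nt, and both are listed in 1 locus. How much of this overlap lies within Hvcn1-001 was not computed.

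Pkdrej showed the highest log2 ratio of the leading transcripts. Pkdrej-201 (ENSMUST00000064370, mm9 chr15:85645106-85652163, minus strand) is made of 1 exon of 7058 nt, with 6381 nt of coding sequence for 2126 amino acids. It had 23.7 FPKM in Tdrd6-/- and 19.9 FPKM in Tdrd6+/- cells, a log2 ratio of 0.25 or 1.19-fold higher. Of 8 other genes of the polycystin family, 4 had an entry and none passed 1.5-fold, with a median log2 ratio of 0.05. The closest of them in level was Pkd2l2, a polycystin channel of the testis, with 8.46 FPKM in Tdrd6-/- and 7.57 FPKM in Tdrd6+/- cells (log2 ratio 0.16).

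Of the pair of Plcz1 transcripts, the short one was lower in Tdrd6-/- cells and the leading one had a ratio below 0 that fell short of 1.5-fold. Plcz1-001 (ENSMUST00000032356, 14 exons, 647 amino acids, mm9 chr6:139938197-139989978, minus strand) had 22.4 FPKM in Tdrd6-/- and 29.4 FPKM in Tdrd6+/- cells, a log2 ratio of -0.39. Plcz1-201 (ENSMUST00000032355, 6 exons, 129 amino acids) had 1.83 FPKM in Tdrd6-/- and 6.58 FPKM in Tdrd6+/- cells, 3.59-fold lower (log2 ratio -1.84, and -1.42 with 1 added to each FPKM). The short isoform held 7.56% of the FPKM of the gene in Tdrd6-/- and 18.3% in Tdrd6+/- cells. The sum over both was 24.2 FPKM in Tdrd6-/- and 35.9 FPKM in Tdrd6+/- cells, a log2 ratio of -0.57, the lowest sum ratio of the 8 genes and just short of 1.5-fold. The transcripts differ slightly at the start of an earlier exon, at 139977076 in Plcz1-001 and 139977079 in Plcz1-201. They part for good after the exon at 139971639 to 139971840. Their junctions there, written as above, show where the short isoform turns into its own last exon.
Plcz1-001: ttggggatatgtaagTGCTCTTGTGAAAGG
Plcz1-201: ttggggatatgtaagACACCTGTGGATGAC
The last exon of Plcz1-201 spans 139968772 to 139968980, inside an intron of Plcz1-001. Unlike the short Catsper4 isoforms, Plcz1-201 has 212 bases and 2 junctions that Plcz1-001 lacks. Most of these bases lie in its last exon of 209 nt, and 1 of the junctions is that of the slightly different exon start. Its value thus rests on more than a single junction. Of 14 other phospholipase C genes 10 had an entry, 0 were lower and 1 was higher, with a median log2 ratio of 0.20. The most abundant was Plcd4, with 23.4 FPKM in Tdrd6-/- and 19.99 FPKM in Tdrd6+/- cells (log2 ratio 0.23).

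Over all 14 transcripts, 3 were lower and 0 higher in Tdrd6-/- cells, and the median log2 ratio was -0.11. In all distinct transcripts with both values above 0, 11.1% were lower (2115 of 19034) and 11.6% were higher (2213), with a median of 0.01. The 3 lower transcripts were all minor isoforms, 3 of the 6 that are not the leading one. Among such other transcripts of all genes 15.5% were lower (1059 of 6827) and 19.3% were higher (1321). Changes of at least 1.5-fold were thus more frequent in minor isoforms than in leading transcripts in both directions. Shares at the larger changes of these 3 were not computed. The 3 transcripts come from 2 genes, and isoforms of a gene share reads, so they are not independent of each other. Catsper2-201 and Catsper4-202 were the 2 of 14 transcripts with an exon junction behind the annotated stop codon, the last at 261 and 703 nt from it, and their log2 ratios were 0.41 and -1.16.

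The order of levels changed in the middle of the set. In Tdrd6-/- cells the leading transcripts ran Catsper2, Catsper4, Catsperb, Pkdrej, Catsper3, Plcz1, Kcnu1 and Hvcn1, high to low. In Tdrd6+/- cells they ran Catsper2, Catsper4, Plcz1, Catsper3, Catsperb, Kcnu1, Pkdrej and Hvcn1. The 5 genes between Catsper4 and Hvcn1 lay within 18.6 to 26.6 FPKM in Tdrd6-/- and within 19.9 to 29.4 FPKM in Tdrd6+/- cells. Without a spread between animals it cannot be said which neighbours in this order differ.

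**Figure D3:**
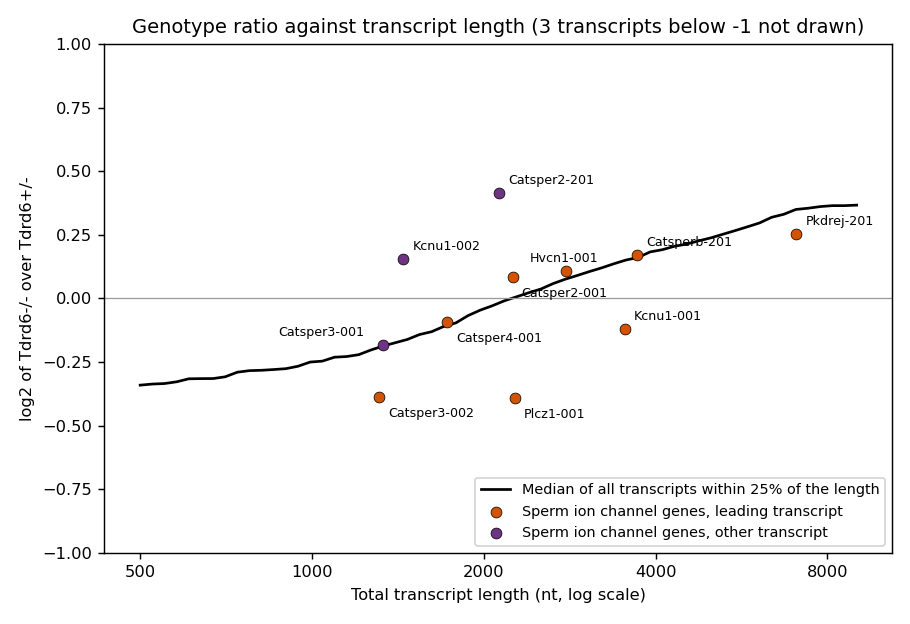
Log2 ratio of Tdrd6-/- over Tdrd6+/- against total transcript length in nt (log scale) for 11 of the 14 transcripts, with leading transcripts in orange and others in purple; the black line is the median of all transcripts within 25% of each length. Catsper4-001, Catsper2-001, Hvcn1-001, Catsperb-201 and Pkdrej-201 lie within 0.1 of the line, and Catsper3-002, Kcnu1-001 and Plcz1-001 lie below it; the 3 transcripts lower than -1 are outside the panel.

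The ratio of the whole data set varied with transcript length. The leading transcripts of 5 of the 8 genes lay within 0.1 of the median of their length. No share of all leading transcripts within that distance was computed, so this count does not set these genes apart. Transcripts of like length, within 25% of that of Pkdrej-201, had a median log2 ratio of 0.35, and Pkdrej-201 lay at -0.0955 relative to it. For Catsper4-001, of 1725 nt, the median was -0.11, and for Catsperb-201, of 3716 nt, it was 0.16, and each of these transcripts lay 0.01 above it. Catsper2-001 lay 0.08 and Hvcn1-001 0.03 above the median of their length, which was itself near 0 (0.00 and 0.08). The other 3 genes lay lower than transcripts of like length, Plcz1-001 at -0.40, Kcnu1-001 at -0.27 and Catsper3-002 at -0.19 relative to it, and none of the 8 lay more than 0.1 above. The lower isoforms kept their distance, with Catsper4-201 at -3.59, Plcz1-201 at -1.59 and Catsper4-202 at -1.01 relative to the median of their length. Efcab9 and Catsperz, of 754 and 781 nt, had medians of like length of -0.29 and -0.28.

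**Figure D4:**
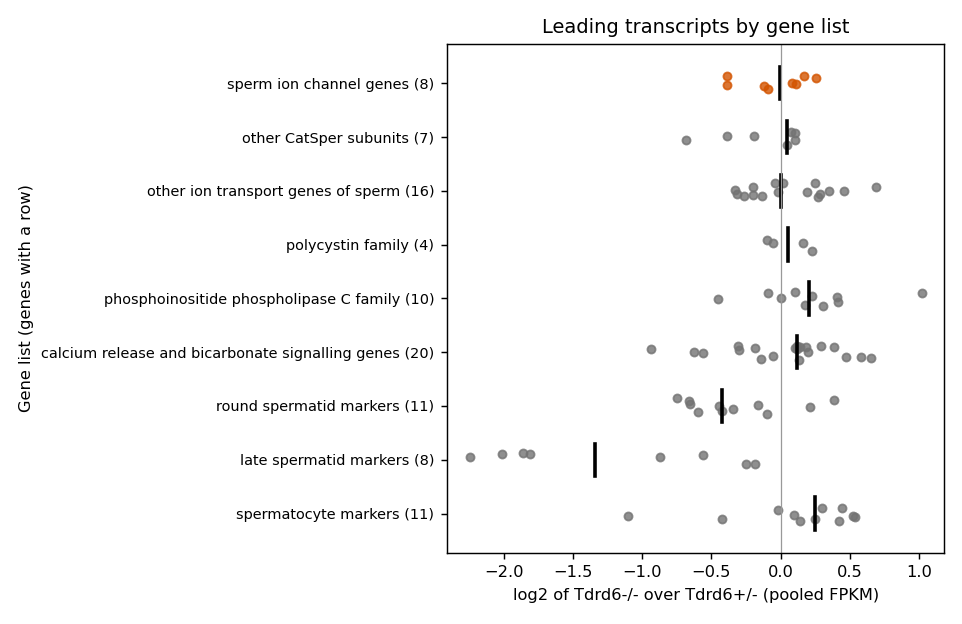
Log2 ratio of Tdrd6-/- over Tdrd6+/- of the leading transcript of each gene, by gene list, with the number of genes that have an entry in brackets; points are genes, their height within a row is arbitrary, and the black bar is the median. The sperm ion channel genes have a median of -0.01, while the medians of the round and late spermatid markers are -0.42 and -1.34 and that of the spermatocyte markers is 0.25. The lists differ in transcript length, and these ratios are not centred on transcripts of like length.

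Genes that act beside these channels passed 1.5-fold in few cases, as did leading transcripts in general (8.65% lower and 7.29% higher), so their counts do not set them apart. Of 22 other ion transport genes of sperm, 16 had an entry, 0 were lower and 1 was higher, with a median log2 ratio of 0.00 and a range from -0.33 to 0.69. Slc9c1, the sperm sodium-proton exchanger, listed as Slc9a10, had 45.0 FPKM in Tdrd6-/- and 37.3 FPKM in Tdrd6+/- cells (log2 ratio 0.27). Atp1a4, the sodium pump isoform of the testis, had 53.4 FPKM in Tdrd6-/- and 61.4 FPKM in Tdrd6+/- cells (log2 ratio -0.20). Of 23 genes of calcium release and bicarbonate signalling, 20 had an entry, 2 were lower and 1 was higher, with a median of 0.12. One of the lower genes was Calr3, a calcium-binding chaperone of the testis, with 31.0 FPKM in Tdrd6-/- and 59.6 FPKM in Tdrd6+/- cells (log2 ratio -0.94). Adcy10, the adenylyl cyclase that bicarbonate activates, had 27.4 FPKM in Tdrd6-/- and 25.2 FPKM in Tdrd6+/- cells (log2 ratio 0.12).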

How the data were processed

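RNA-seq was made from round spermatid preparations of 4 Tdrd6-/- and 4 Tdrd6+/- mice. Alignment to mm9 used TopHat2 (2.0.9) and Bowtie2 (2.10, as the submitters' processing notes write it), and transcripts were quantified by Cufflinks (2.1.1) with Cuffdiff. The methods describe ribosomal RNA removal and the labels poly-dT selection. The authors deposited FPKM in 3 tables that split transcripts at 3' UTRs of 350 and 1500 nt. In these FPKM Cuffdiff scaled fragments to the transcript and the library and merged the 4 animals of each genotype. The tables also hold fold changes and significance columns of the authors' own comparison, which were not used. Depth per library is unknown from these files.

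Each transcript identifier was taken once, and the log2 ratio was computed from the pooled FPKM without a pseudocount, leaving out 43 transcripts with a value of 0. The change of 1.5-fold is a fixed limit and no test was run. Lengths, exons and junction sequences come from GENCODE M1 on mm9 by transcript identifier, with 217 transcripts not matched; the study's annotation release differs. For one leading transcript per gene, 16 entries whose names a spreadsheet had turned into dates were left out. Every transcript of the 9 genes is named, with Tdrd6 as genotype check and list members of at least 1 FPKM as examples. Members and lists were chosen with earlier results of these data known. Alternatives were 0.1 or 1 added to FPKM, a minimum FPKM of 1, centring by 3 medians, a laxer fold limit and one of 2-fold, 1 transcript per gene and gene sums. Python 3.11.15, numpy 2.4.6, pandas 2.3.3 and matplotlib 3.10.9 were used, and the computation was tested on simulated data.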

Additional observations from a re-analysis of the deposited data

How the results depend on the processing

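The values rest on 1 pooled FPKM per genotype, so neither leaving out an animal nor any measure of spread was possible. No paired analysis was possible because each genotype has a single pooled value. Of the 14 transcripts, 3 were at least 1.5-fold lower in Tdrd6-/- cells. With the laxer of the alternative limits there were 5 lower and 1 higher, against 0 higher at 1.5-fold, and at 2-fold the count of lower ones was again 3. Shares of all transcripts were not computed at the laxer limit or at 2-fold. The counts at those limits therefore cannot be set against a background and do not set these transcripts apart. With 1 transcript per gene 0 were lower, since the 3 are minor isoforms, and the median log2 ratio was -0.0058 instead of -0.11. The 3 lower transcripts stayed below 0 throughout, but these alternatives could not have changed that. Adding the same amount to both FPKM keeps the sign, and the medians subtracted were small beside these ratios. The minimum FPKM left out none of the 14, and both minor Catsper4 isoforms passed it only through their Tdrd6+/- values. A shift of more than 0.1 in the log2 ratio came in 2 of 14 transcripts with 0.1 added to each FPKM and in 4 with 1 added. It came in 12 when centred on the median of the 3' UTR table and in 10 when centred on transcripts of like total length. Under centring the shift is the median subtracted, so those counts follow from the 3' UTR table and the length alone. Among transcripts short of the limit, centring on the 3' UTR table gave the opposite sign for Catsper4-001 (0.04), Kcnu1-001 (0.0088) and Hvcn1-001 (-0.10), and the median of the 14 was then -0.02. Centring on like length gave the opposite sign for Catsper3-001 (0.0055), Catsper4-001 (0.01) and Pkdrej-201 (-0.10).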
